A study of Homo sapiens with 4 samples.

Results

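Peroxiredoxins, glutathione peroxidases and superoxide dismutases were examined in cultured MDA-MB-231 cells, a widely used human line of triple-negative breast cancer. The genes were 6 peroxiredoxins (PRDX1 to PRDX6), the glutathione peroxidases GPX1 and GPX4, and the superoxide dismutases SOD1 and SOD2. All rows of the deposited transcript table with 1 of these 10 symbols were taken. They numbered 32 transcripts out of 43596, and the table held 15113 gene symbols in all. Cells were treated for 24 h with DMSO, the solvent, or with 10 µM KH-3, an inhibitor of the RNA-binding protein HuR, and each condition had 2 mRNA libraries. The model is a single cell line at 1 time point. The study's methods also name a 5 µM KH-3 group, which has no sample among those used here.

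Superoxide that leaks from respiration and from oxidases is converted to hydrogen peroxide by superoxide dismutases, and the peroxide is then reduced to water by peroxiredoxins, glutathione peroxidases and catalase. Most peroxiredoxins are recharged by thioredoxin, and glutathione peroxidases by glutathione. GPX1 and GPX4 are selenoproteins, whose active site carries a selenocysteine encoded by a UGA codon that elsewhere means stop.

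The only measurement used was the authors' mean normalized read count of each transcript, 1 pooled value without the separate values of the replicates. Which libraries enter that mean is not stated, nor whether those with 5 µM KH-3 do, so a value is the level of neither DMSO nor KH-3 cells, and no difference between the conditions is described. No SD, n or test can be attached to any value, and the depth of the libraries is unknown. Levels between genes were compared per kilobase. A gene's level is the sum, over its listed transcripts, of the mean normalized read count divided by the transcript length in kb. The lowest mean listed was 7.34 and the median was 50.8, so transcripts with fewer reads are not in these sums.

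The line is known as mesenchymal and poor in hormone receptors. Of the markers chosen for this that had a row, most but not all followed it. VIM, an intermediate filament of mesenchymal cells, had a level of 10135 per kb and was gene 53 of 15113 in order of level. EGFR stood at 1242 per kb and the adhesion receptor CD44 at 427 per kb. FN1, chosen as a marker that should be present, had 8.64 per kb and percentile 9.85, which goes against that choice. ERBB2 and EPCAM had levels of 44.3 and 43.3 per kb, below the median gene at 108. ESR1, PGR and CDH1 had no row, which is not a measured low level.

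Among the peroxide and superoxide enzymes, PRDX1 had the highest level, and the lowest were those of SOD2 and of the listed GPX4 transcripts, which lack the reference transcript of that gene. Of the 10 genes, 8 lay in the top 10% of all genes, whose lower edge was at 797 per kb, and these 8 lay within the top 4% as well. SOD2 was at percentile 73.8 and GPX4 at percentile 51.9, next to the median gene. Highest and lowest member differed 96.4-fold, or 38.1-fold with GPX4 left out. Together the 32 transcripts took up 0.237% of all mean normalized reads in the table. The 6 peroxiredoxins made up 81.1% of the summed level of the 10 genes, the dismutases 11.2% and the glutathione peroxidases 7.68%. PRDX1 alone made up 38.4%, and GPX4 entered by its listed transcripts only. These shares were not computed under other settings. In bulk RNA, a level cannot separate the share of cells that express a gene from the amount of RNA per cell.

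**Figure D1:**
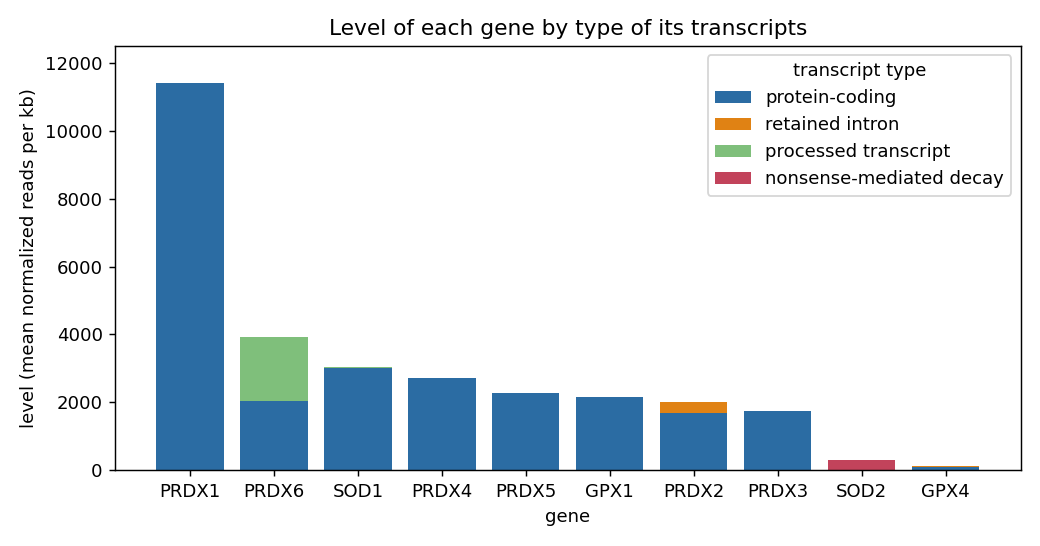
Level of each gene in mean normalized reads per kb of transcript (vertical axis), as stacked bars coloured by the annotated type of the transcripts. Each bar is the authors' pooled mean with no replicate error; PRDX1 reaches 11394 per kb, the next 7 genes lie between 1745 and 3935, and SOD2 and GPX4 stay at 299 and 118.

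PRDX1, the main cytosolic peroxiredoxin and a thioredoxin-dependent peroxidase, had a level of 11394 per kb and was gene 40 of 15113. This was 2.90 times the level of the next member, PRDX6. The margin over the next member was 1.61-fold without division by length and 1.64-fold with the highest transcript of each gene alone. Its size thus rests in part on the PRDX1 transcripts that the table lists with 606 and 609 bases. On hg38 it spans chromosome 1 from 45510914 to 45542732, minus strand. Its 4 listed transcripts were all protein-coding. PRDX1-001, which is the MANE Select transcript (the reference transcript that Ensembl and RefSeq agree on), had a mean normalized read count of 3292, PRDX1-002 of 2967, PRDX1-003 of 1868 and PRDX1-201 of 254. Reads of this gene were thus spread over 3 coding transcripts, none of which held most of them. With the transcript of highest level alone, PRDX1-002, the level was 4896 per kb and still the highest of the 10 genes. PRDX1-002 has 606 bases as listed, but 1107 under the same ID in GENCODE release 44. Its level per kb, and every ratio of PRDX1 per kb here and below, therefore holds for the listed lengths only. Levels with the longer sequence were not computed.

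PRDX2, a close cytosolic relative that is known for its abundance in red blood cells, had a level of 2011 per kb, so that PRDX1 exceeded it 5.67-fold, or 3.08-fold with the highest transcript of each gene alone. It lies on chromosome 19 from 12796820 to 12801800 on the minus strand. PRDX2-001 had a mean normalized read count of 1567, which was 78.6% of the gene's reads. Retained-intron transcripts were most evident here: PRDX2-006 held 11.5% of the reads with a mean of 229, and 3 of the 5 listed transcripts were of this type. Counting protein-coding transcripts alone brought the level to 1678 per kb.

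The mitochondrial peroxiredoxin PRDX3, which is recharged by thioredoxin 2, had the lowest level per kb of its family with 1745, though not the lowest summed read count, which was 2783. It lies on chromosome 10 from 119167720 to 119178812 on the minus strand, and PRDX3-001 with a mean normalized read count of 2758 held 99.1% of its reads. The level of PRDX1 was 6.53 times that of PRDX3, 3.01 times without division by length and 2.82 times with the highest transcript of each gene alone. PRDX5, which acts in mitochondria, peroxisomes and cytosol, stood at 2269 per kb. It lies on chromosome 11 from 64318121 to 64321811 on the plus strand, and PRDX5-001 had a mean of 1922 or 96.5% of its reads. Both genes therefore read out essentially as 1 transcript.

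PRDX4, the peroxiredoxin of the endoplasmic reticulum and the secretory route, stood at 2720 per kb. It lies on chromosome X from 23664262 to 23686397 on the plus strand. Its reads were divided between PRDX4-001, with a mean normalized read count of 1282 or 61.5%, and the shorter coding transcript PRDX4-005, with 793 or 38.0%. PRDX6, which uses glutathione rather than thioredoxin and also has phospholipase activity, was second with 3935 per kb. It lies on chromosome 1 from 173477330 to 173488815 on the plus strand. PRDX6-001 had a mean of 3570, the highest of all 32 transcripts, and 68.7% of the gene's reads. The non-coding processed transcript PRDX6-003 had a mean of 1561 or 30.1%. Because PRDX6-003 is short, it carried 46.2% of the gene's level per kb, and the protein-coding level alone was 2039.

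Without replicate values, neighbours in the order cannot be said to differ. SOD1 over PRDX4, PRDX5 over GPX1 and GPX1 over PRDX2 were ratios of 1.11, 1.05 and 1.07. Counting protein-coding transcripts alone moved PRDX6 by more than that, from second place to below SOD1, PRDX4, PRDX5 and GPX1. PRDX3 over SOD2 was a larger step of 5.84-fold, which came to 2.02-fold without division by length. SOD2 over the listed GPX4 transcripts was 2.53-fold, and this order turned with protein-coding transcripts alone, to a ratio of 0.0968.

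GPX1, the glutathione peroxidase of cytosol and mitochondria, stood at 2162 per kb. GPX4, the enzyme that reduces lipid hydroperoxides in membranes and guards against ferroptosis, is incompletely listed, so the pair was not compared. Both genes encode their selenocysteine by TGA in the DNA. The bases around that codon are shown because they are the part of these transcripts that needs the selenocysteine machinery described further on, with the codon in capitals, 5′ to 3′ on the coding strand. In GPX1 the window is chr3:49358120-49358146 of hg38 on the minus strand, in exon 1 and codon 49 of the MANE Select coding sequence. In GPX4 it is chr19:1105391-1105417 on the plus strand, in exon 3 and codon 73.
GPX1: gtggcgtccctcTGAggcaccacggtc
GPX4: gtggcctcccagTGAggcaagaccgaa

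Few of the GPX1 reads were assigned to the ID of the reference transcript. GPX1-002 had a mean normalized read count of 1414 and 63.7% of the reads, and GPX1-201 had 746 or 33.6%. GPX1-001, which carries the ID of the MANE Select transcript, had 58.7 or 2.64%. In GENCODE release 44 the transcript with the ID of GPX1-002 has 1 exon, while that of GPX1-001 has 2. The selenocysteine codon is annotated in both of these, and GPX1-201 was not found by its ID in that release. GPX1-001 has 1146 bases as listed and 899 in release 44, whereas GPX1-201 has 897 as listed. The 2.64% of GPX1-001 is therefore not the share of the release 44 sequence, which is unknown. GPX1 lies on chromosome 3 from 49357174 to 49358605 on the minus strand. GPX1P1, a processed pseudogene, was the only pseudogene of these families with a row, at a mean of 14.2.

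For GPX4, the listed transcripts did not include the MANE Select transcript, ENST00000354171. The 4 listed were GPX4-011 with a mean normalized read count of 38.8, ENST00000622390.4 with 26.6, GPX4-009 with 18.2 and the retained-intron transcript GPX4-001 with 10.3. All 4 lay below the median transcript of the table. The level of 118 per kb thus describes these 4 transcripts and not the gene as a whole. All windows of 50 bases in GPX4-011 also occur in the unlisted MANE Select transcript. GPX4 lies on chromosome 19 from 1103982 to 1106791 on the plus strand.

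SOD1, the copper-zinc dismutase of the cytosol, stood at 3028 per kb, 10.1 times the level of SOD2, the manganese dismutase of the mitochondrial matrix. The ratio came to 2.13 without division by length and to 284 with protein-coding transcripts alone. SOD1 lies on chromosome 21 from 31659666 to 31668931 on the plus strand, and SOD1-001 with a mean normalized read count of 2885 held 98.4% of its reads. SOD2 lies on chromosome 6 from 159669069 to 159762529 on the minus strand in release 44. Its leading transcript was SOD2-012, annotated as a target of nonsense-mediated decay, the pathway that removes mRNAs with an early stop codon. SOD2-012 had a mean of 1219 or 88.4% of the reads, and the coding MANE Select transcript SOD2-001 had 151 or 11.0%. SOD2-001 is 14266 bases long in the table, so its level was only 10.6 per kb. Counting protein-coding transcripts alone, the level of SOD2 fell from 299 to 10.6 per kb and was the lowest of the 10. The 10.6 and the ratio of 284 rest on how the authors' software divided reads between SOD2-012 and SOD2-001, which share much sequence. The row named SOD2-005, with a mean of 8.70, carries an ID that release 44 gives to the non-coding gene SOD2-OT1.

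**Figure D2:**
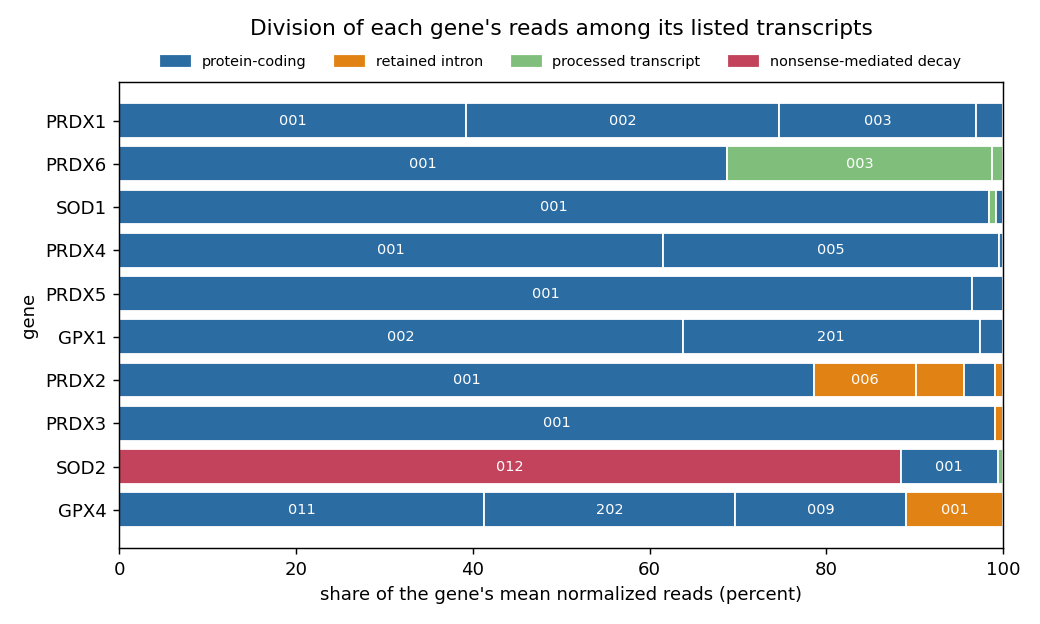
Share of each gene's mean normalized reads (horizontal axis, percent) in each listed transcript, coloured by annotated type, with genes in order of level and the transcript number printed in segments of 10% or more. PRDX3, PRDX5 and SOD1 consist almost wholly of transcript 001, PRDX1 is spread over 3 coding transcripts, and SOD2 is dominated by the nonsense-mediated decay transcript 012.

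Of the 32 transcripts, 22 were protein-coding, 5 were retained-intron transcripts, 4 processed transcripts and 1 a nonsense-mediated decay transcript. Protein-coding transcripts held 88.8% of the members' reads, against 85.9% of all reads in the table. By its ID, the MANE Select transcript was listed for 9 of the 10 genes and was the leading transcript for 7, the exceptions being GPX1, GPX4 and SOD2. Over all 11799 symbols with a MANE Select transcript in release 44, it was listed for 83.7%, and for 88.3% of the 11191 whose transcript ID was no higher than the highest in the table.

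The division of reads among transcripts rests on how the authors' software assigned reads that match several of them. To see how much of each transcript is its own, the reference sequences of release 44 were cut into windows of 50 bases. The read length is not given in the sources used here, and 50 stands for a short read. Of 30 transcripts found by ID, 19 had the same length in both releases. In 17 of all 30, at least 80% of the windows also occur in another listed transcript of the same gene, and the median share was 84.2%. SOD2-012 shares 95.8% of its windows with SOD2-001 and has 177 windows of its own. SOD2-001 in turn has 10042 windows of its own, 71.1% of them, and yet was assigned fewer reads. PRDX2-003 and PRDX2-004 have no window of their own. PRDX6-003 shares 84.3% of its windows with PRDX6-001. PRDX3-001, the leading transcript of its gene, shares 38.8%. Where on a transcript the reads fell is not shown by the table.

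**Figure D3:**
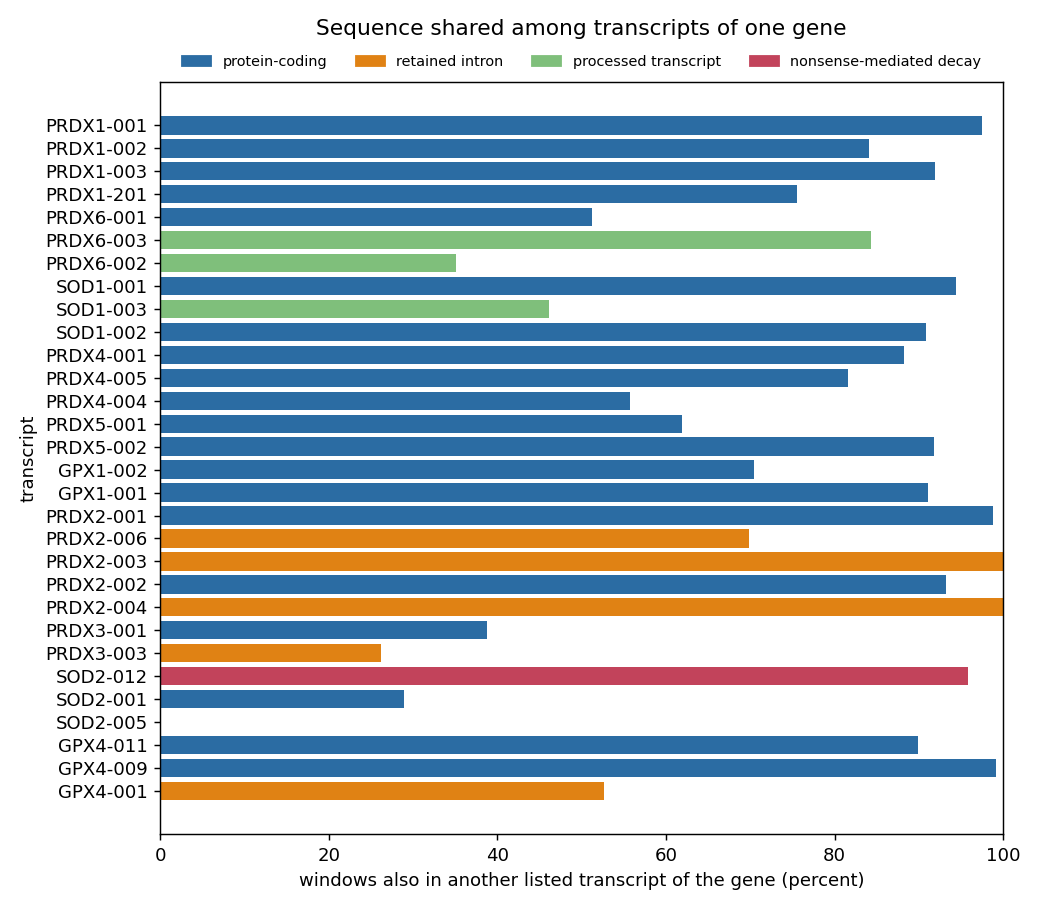
Share of each transcript's windows of 50 bases that also occur in another listed transcript of the same gene (horizontal axis, percent), coloured by annotated type, for the 30 transcripts found in GENCODE release 44. SOD2-012 lies at 95.8% and PRDX1-001 at 97.4%, whereas SOD2-001 lies at 28.9%.

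Sharing with other genes was small except for GPX1. Of the 30 transcripts, 11 had no window in a transcript of another gene, and 3 had more than 10% of them there. GPX1-002 had 56.3% and GPX1-001 78.2%, mainly in ENSG00000290318, a gene that overlaps GPX1 on the same strand in release 44 and has no row in the table. Counting listed genes alone, with GPX1P1 among them, the values were 16.2% and 26.4%. The third was SOD2-005 with 50.6%, mainly in SOD2. No window of PRDX1-001 occurs in PRDX2-001. Opposite-strand neighbours with a row were MMACHC at PRDX1, with a summed mean of 244, and WTAP and ACAT2 at SOD2, with 1147 and 2260. HOOK2, on the same strand as PRDX2, had 144. Whether the counting used strand is not given in the sources used here, and the part of such neighbours in these values was not tested.

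HuR, the protein that KH-3 inhibits according to the study, binds AU-rich stretches in 3′ untranslated regions. The pentamer AUUUA was therefore counted, in 9 of the genes, on the sense strand of the MANE Select 3′ untranslated region, with overlapping matches allowed. It occurred in 3 of the 9, namely PRDX3, PRDX6 and SOD2, and in 74.4% of 11797 genes of the table. These regions are mostly short: 8 of them ran from 62 bases in PRDX4 to 952 in PRDX6, against a median of 1367, and that of SOD2 was 13424 bases. In genes of like length (the same 10% of genes by length), 42.0% hold the pentamer for PRDX1 and PRDX2, 72.2% for PRDX3 and PRDX6, 19.8% for PRDX4, PRDX5, GPX1 and GPX4, and 99.7% for SOD2. PRDX3 has 1 match, PRDX6 has 2 and SOD2 has 35. The regions searched are not always those of the transcripts with most reads. By its ID, the MANE Select transcript held 11.0% of the reads of SOD2 and 2.64% of those of GPX1, and it had no row for GPX4. A match is only a description of the sequence, and binding was not measured in these data. The study separately sequenced RNAs bound by HuR in this line, which were not used here. It also names uridine-rich sequences as sites of HuR, and these were not counted.

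The single match of PRDX3 and the pair of PRDX6 are shown with 12 bases on each side, written as DNA with the pentamer in capitals, 5′ to 3′ on the coding strand. They lie at chr10:119167799-119167827 on the minus strand for PRDX3, and at chr1:173488095-173488123 and chr1:173488630-173488658 on the plus strand for PRDX6, all in hg38.
PRDX3: attataaaggatATTTAtcaaatccaggg
PRDX6, first: aatatgttctgtATTTAaaactcaaatct
PRDX6, second: cacagggtttgcATTTAtcagtctgtttt

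The genes that supply, repair or equip these enzymes numbered 17, of which 3 lay in the top 10% of all genes and 5 below the median gene. Of 6 other peroxidases and dismutases, 4 had a row, 0 lay in the top 10% and 1 lay below the median gene. TXN, the cytosolic thioredoxin that recharges PRDX1, had a level of 3963 per kb, the only one of these 21 listed genes above the level of PRDX3. PRDX1 exceeded it 2.87-fold, or 1.25-fold with the highest transcript of each gene alone. GLRX, a glutaredoxin, stood at 1167 and TXN2, the mitochondrial thioredoxin, at 973 per kb, so that PRDX3 was 1.79 times TXN2. TXNRD1, the reductase that restores thioredoxin, had 199 per kb, and the mitochondrial reductase TXNRD2 had 44.9. For both reductases the MANE Select transcript had no row, as for GPX4, so these 2 levels leave it out, whereas it had one for the other 19 genes. SRXN1, which repairs overoxidized peroxiredoxins, stood at 555 per kb, and the glutathione reductase GSR at 499.

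Sestrins, stress-induced proteins linked to peroxiredoxin repair, ranged from 50.9 per kb for SESN1 to 114 for SESN2. Of the other peroxidases and dismutases, catalase (CAT) stood at 691 per kb, the endoplasmic reticulum peroxidase GPX8 at 687, the secreted GPX3 at 342 and the extracellular SOD3 at 62.4, whereas GPX2 and GPX7 had no row. CCS, the chaperone that loads SOD1 with copper, had 173 per kb over 7 transcripts. SOD1 exceeded it 17.5-fold, 41.7-fold with protein-coding transcripts alone and 59.0-fold with the highest transcript of each gene alone. The level of CCS thus depends on which of its transcripts are counted. All 5 genes of the selenocysteine machinery were listed. SEPHS2, which makes the selenium donor, stood at 439 per kb, SECISBP2, which binds the selenocysteine insertion element, at 283, the elongation factor EEFSEC at 102, SEPSECS at 58.2 and the kinase PSTK at 14.7. These levels are of mRNA and say nothing of enzyme amounts.

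**Figure D4:**
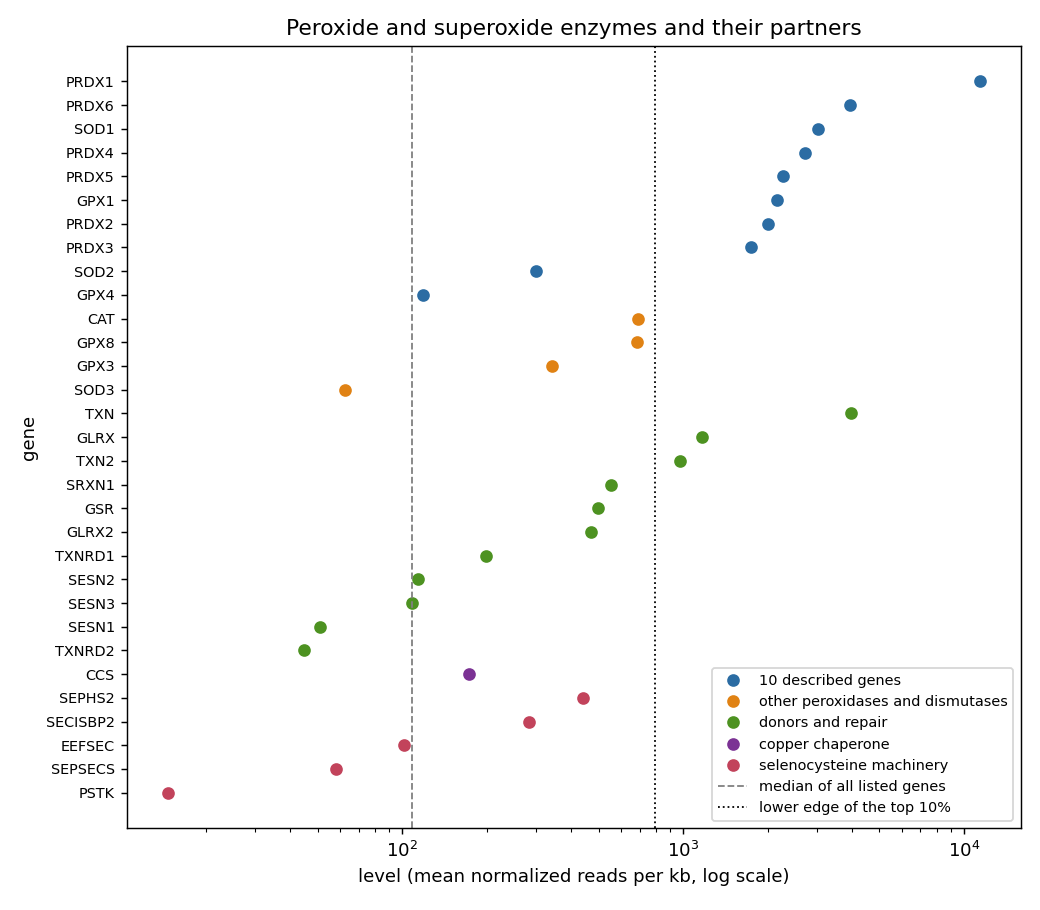
Level in mean normalized reads per kb (horizontal axis, log scale) of the 10 described genes and of 21 genes that supply, repair or accompany them, coloured by list, with the median of all listed genes and the lower edge of the top 10% as lines. Of the partners TXN, GLRX and TXN2 lie above the edge at 797, and 8 of the 10 described genes lie there.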

How the data were processed

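MDA-MB-231 libraries (2 DMSO, 2 with 10 µM KH-3) are grouped by the sample titles. Per the study's methods and the labels, the authors mapped reads with STAR to GENCODE release 24 transcripts, obtained read counts for each transcript from eXpress, and ran DESeq2 on the conditions; versions are not given in the sources used here. The deposited signal is 1 mean normalized read count per transcript, averaged over libraries by the authors. The table's other measurements, namely a log2 fold change, a p-value and a q-value of KH-3 against DMSO, are the authors' own comparison and were not used. Since no value per library was at hand, the planned test of KH-3 against DMSO could not be run.

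Levels per kb were summed over the listed transcripts of a gene symbol (23 symbols cover more than 1 Ensembl gene). Transcripts were matched by ID without version to GENCODE release 44 on hg38. All 10 genes were described, and transcripts were named where they lead the gene or hold 10% or more of its reads; others were named after their values were seen. The members and lists were chosen with earlier results of these data known. The 3′ untranslated region of SOD1 is not reported here. Alternatives covered the transcripts counted, a minimum mean of 50 and the division by length; those for ratios between genes, and the span without GPX4, were added after the data were seen. The computations were tested on simulated data and used Python 3.11.15, numpy 2.4.6, pandas 2.3.3 and matplotlib 3.10.9.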

Additional observations from a re-analysis of the deposited data

How the results depend on the processing

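The number of the 10 genes in the top 10% was 8 in the table as used and under each of its 4 alternatives. The share of all mean normalized reads moved from 0.237% to 0.245% with protein-coding transcripts alone, 0.215% with the transcript of highest level per kb alone and 0.244% without transcripts under a mean of 50. The share of the members' reads in protein-coding transcripts moved from 88.8% to 89.0% without transcripts under that mean, and to 91.4% when weighted by level per kb. The highest member over the lowest went from 96.4 to 1075 with protein-coding transcripts alone, because the level of SOD2 then came to 10.6 per kb, to 100.1 with the transcript of highest level alone, to 89.3 without division by length, and to 38.8 without transcripts under a mean of 50, which leaves GPX4 with no transcript. Levels of single genes moved more than 1.5 times for 2 genes (PRDX6 and SOD2) with protein-coding transcripts alone, for 5 genes with the transcript of highest level alone and for 0 of 9 under the minimum of 50. No error is known for these values, so any change beyond 3 significant digits was counted as a move. No paired analysis was possible because the table holds no value per library, and leaving out a library was not run for the same reason. The depth of the libraries, and so the precision of every level, is unknown.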

Other observations

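GPX4, TXNRD1 and TXNRD2, whose MANE Select transcripts have no row, all encode selenoproteins, so the other selenoprotein genes were looked at after these values were seen. Release 44 marks 25 genes as such, and 20 of them were listed with at least 1 transcript. Of these 20, the MANE Select transcript was listed for 15 (75%). It was listed for 88.3% of 11171 other genes whose transcript ID is no higher than the highest in the table. Apart from the 3 that prompted the question, it was listed for 15 of 17 (88.2%). This share drops only genes already seen to lack it and keeps GPX1, GPX3 and SEPHS2, already seen to have it. It is therefore raised by that choice, and no conclusion is drawn from it. The 2 of the 17 without it were SELENOW and DIO2. Besides GPX1, selenoprotein genes above the edge of the top 10% were SELENOF, an endoplasmic reticulum protein, at 3295 per kb, SELENOS, which takes part in the removal of misfolded proteins, at 1215, and SELENOK at 839. By ID, their MANE Select transcripts held 52.6%, 92.3% and 35.3% of the reads, against 2.64% for GPX1. Among the 15 genes whose MANE Select transcript was listed, the next lowest shares were 25.3% for SELENON and 28.8% for SELENOH. The GPX1 transcript under that ID has 1146 bases as listed and 899 in release 44, so its share is not that of the release 44 sequence. Such lengths were not compared for the other selenoprotein genes outside the 10.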
